A study of Mus musculus with 6 samples.

Results

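The 44 ribosome biogenesis and nucleolar genes described here encode proteins that make, modify and assemble ribosomal RNA, measured in cultured mouse CD8 T cells. They were taken as a named list, and all 44 listed genes were kept because each reached 1 CPM in at least 3 of the 6 libraries. CPM is the read count of a gene after every library has been brought to 1 common total, and the lowest value of any of the 44 genes in any library was 7.15 CPM. The whole table held 25655 gene identifiers, of which 10590 passed that filter and were tested. The mice were female C57BL/6, either wild type (WT) or labelled as a knockout of Utx (Utx KO), and their splenic CD8 T cells gave 3 biological replicates per genotype. Utx, encoded by Kdm6a, is an enzyme that removes methyl groups from lysine 27 of histone H3. In both groups naive cells, low in CD44 and high in CD62L, were stimulated for 2 days with plate-bound antibodies to TCR-β (3 μg/ml) and CD28 (1 μg/ml) in interleukin 2 (10 ng/ml), then kept for 3 more days in interleukin 2. All 6 libraries are thus from day 5, and they read polyadenylated transcripts at the 3' end. The labels give neither the age of the mice, the part of Utx that was deleted, the Cre or other means used, nor whether the replicates were separate animals. The p-values therefore measure the spread between these samples only.

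The recovered library totals were 1619085 to 2529113 reads, and a count of 0 allows up to 3 reads, which is 1.19 to 1.85 CPM. Kdm6a stood at 44.3, 49.3 and 53.6 CPM (WT) and at 27.8, 39.4 and 31.5 CPM (Utx KO). Its level fell by 0.57 on the log2 scale (SE 0.15, limma adjusted p = 0.0123), a call that ended when Utx KO replicate 1 (0.0554), WT replicate 2 (0.0528) or WT replicate 3 (0.0708) was left out, and with DESeq2 (0.0984). The groups did not overlap, but a 3' tag outside the deleted part does not check a deletion, and the labels do not say where that part lies. All 8 CD8 T cell markers were detected, with summed levels of 2704 to 2828 CPM in WT and 2836 to 2886 CPM in Utx KO. Of the 4 markers of CD4 and regulatory T cells Cd4 was at 0 in every library, but the list summed to 11.5 to 17.5 CPM in WT and 11.1 to 13.5 CPM in Utx KO. All 5 neutrophil markers were at 0, as were 4 of 6 B cell markers (Cd79a, Ighm, Ms4a1 and Pax5) and 4 of 6 myeloid markers (Adgre1, Cd14, Itgam and Lyz2). Summed B cell markers were 2.77 to 5.47 CPM in WT and 0.571 to 1.85 CPM in Utx KO, myeloid markers 6.72 to 8.29 and 7.55 to 12.4 CPM, and dendritic cell markers 6.45 to 11.1 and 1.99 to 5.56 CPM. Natural killer markers summed to 0.395 to 1.09 CPM in WT and 0 to 1.85 CPM in Utx KO. Erythroid markers summed to 0 to 0.461 CPM in WT and 2.29 to 3.09 CPM in Utx KO, with Hbb-bs and Alas2 at 0 in every library. The summed ranges of the genotypes did not overlap for the CD8 T cell, B cell, dendritic cell and erythroid lists. The part of the low signals of other cell types in the values below was not tested.

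Ribosome production begins in the nucleolus, where RNA polymerase I transcribes a long precursor of the ribosomal RNAs. Small nucleolar ribonucleoproteins (snoRNPs) guide its methylation and pseudouridylation, and large sets of assembly factors then cut and fold it into the small and large subunits. T cells enlarge their nucleoli and raise ribosome production after activation, as they grow and divide. In bulk samples fewer cells of a type and less RNA per cell cannot be told apart, so each value below is a level over all cells of a culture.

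The levels of these genes were close between the genotypes at day 5. Of the 44 genes, 3 passed the test as higher in Utx KO (6.82%): Npm1, Noc2l and Polr1c. Over all tested genes 559 of 10590 were called higher (5.28%), so the share among the 44 is near that background. None of the 44 was called lower by limma, against 583 of 10590 tested genes (5.51%), and in either direction 10.8% of tested genes were called. At an unadjusted p under 0.05 the limma fit had 7 of the 44 genes, 4 higher and 3 lower, against 22.7% of all tested genes. edgeR, DESeq2 and limma-voom on the recovered reads also called none of them lower. The log2 fold changes ran from -0.37 (Polr1b) to 0.45 (Polr1c), with 18 above and 26 below 0 and a median of -0.04, beside a median of 0.01 over all tested genes.

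**Figure D1:**
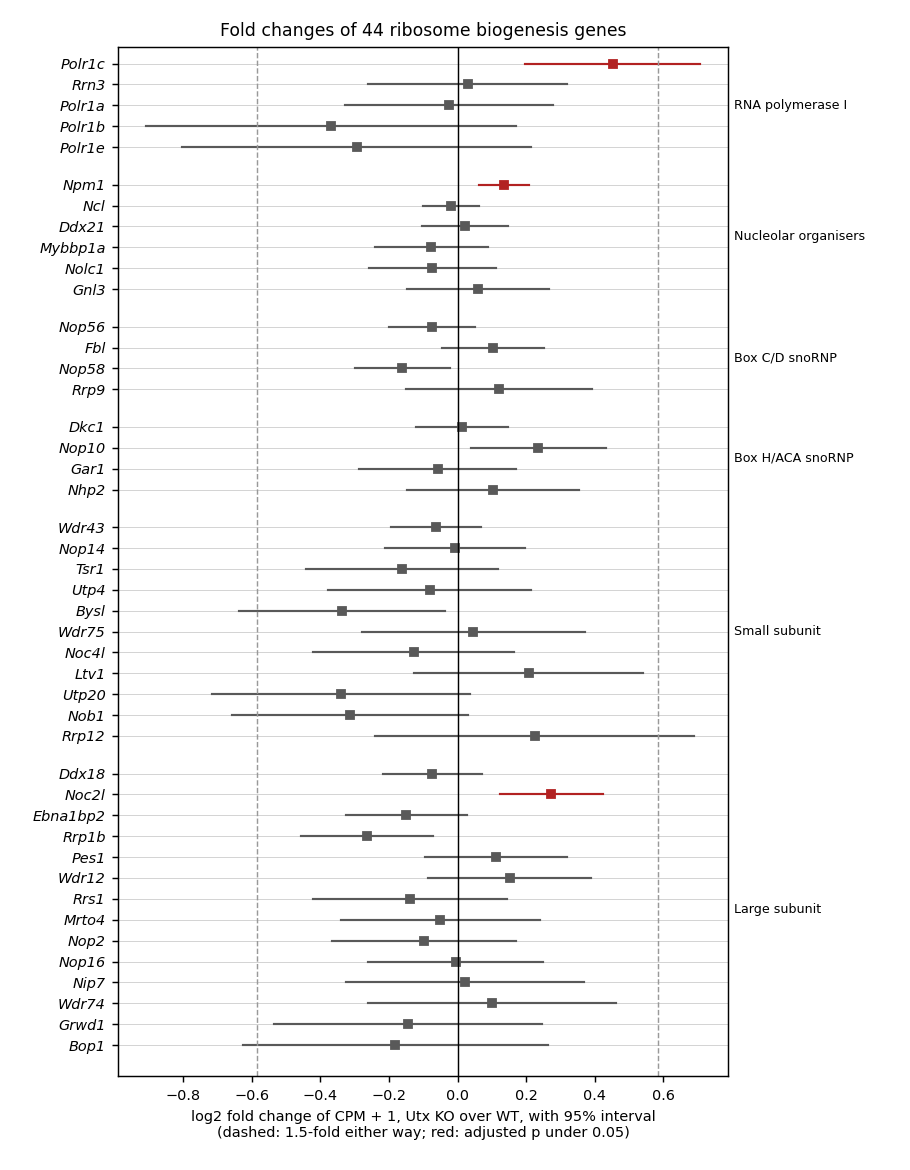
Log2 fold change of CPM + 1 (Utx KO over WT, horizontal axis) with its 95% interval for each of the 44 genes, grouped by role, with 1.5-fold either way as dashed lines and calls in red. The intervals of 36 genes lie inside the dashed lines, and Polr1c, Npm1 and Noc2l are the red points, all to the right of 0.

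These libraries were precise enough to bound most of the differences. For 36 of the 44 genes (81.8%) the 95% interval of the fold change lay inside 1.5-fold in either direction, which held for 48.0% of all tested genes. Those are not matched in level, with a median of 24.2 CPM against 56.7 CPM for the 44 genes. The share was 78.9% among the other ribosome biogenesis genes described below. It was 87.2% among mitochondrial and 94.7% among cytosolic ribosomal protein genes. The part of level in these shares was not tested. The 8 genes with wider intervals were Bop1, Bysl, Nob1, Polr1b, Polr1c, Polr1e, Rrp12 and Utp20. The WT and Utx KO libraries did not overlap for 8 genes (18.2%), against 26.5% of all tested genes. Npm1, Noc2l and Polr1c were the higher ones, and Bysl, Ebna1bp2, Nob1, Polr1e and Rrp1b the lower ones. Between the highest and lowest of the 6 libraries the ratio was under 1.5 for 35 genes and under 2 for all 44, with a median of 1.34. The median coefficient of variation between replicates was 7.14% in WT and 8.11% in Utx KO. In the annotation 17 of the 44 genes share exon sequence with a gene on the opposite strand and 4 with small RNA genes on their own strand. For 6 genes (Ddx18, Fbl, Mrto4, Nop56, Polr1b and Wdr12) at least 20% of the 50-base pieces of the last 300 bases occur in transcripts of other genes, and their values are uncertain to that extent.

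**Figure D2:**
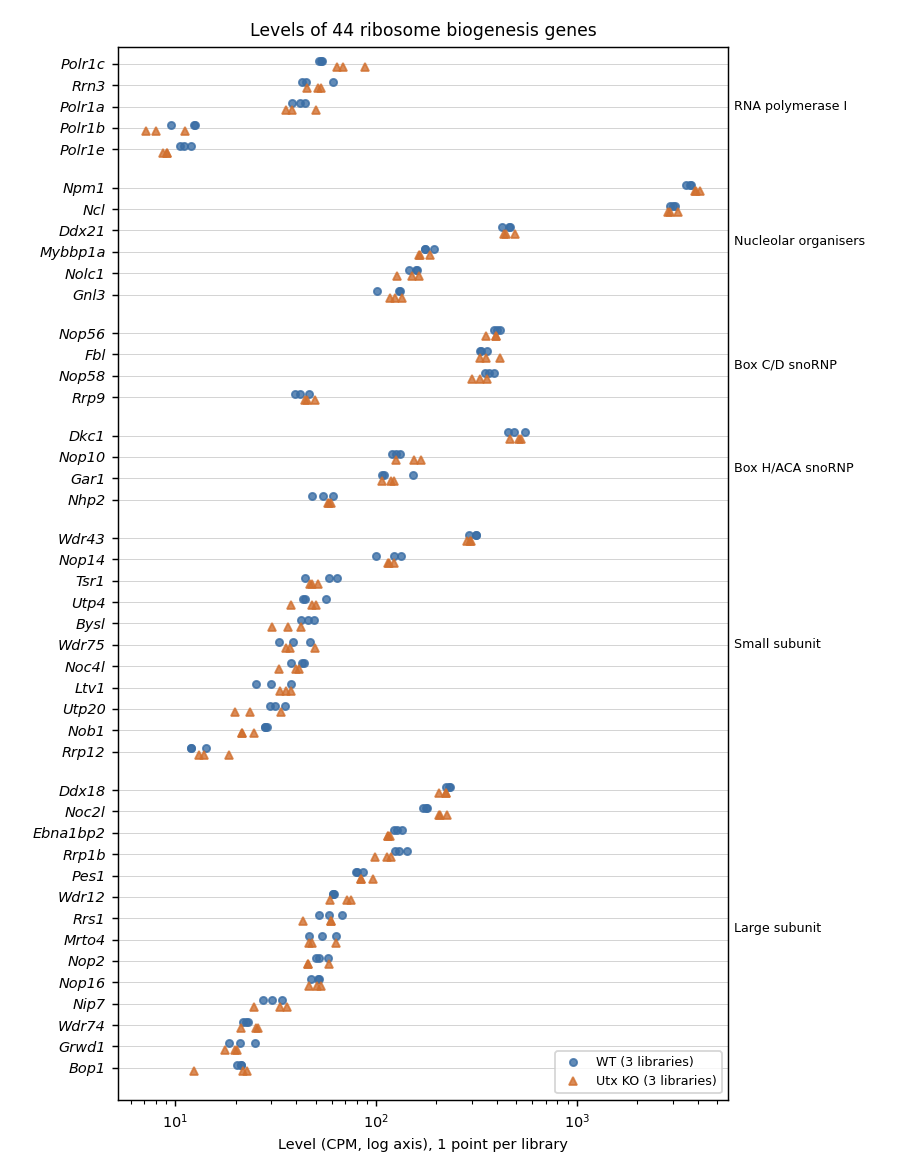
Level of each gene in each library (CPM, log axis), grouped by role and ordered by level, with circles for the 3 WT and triangles for the 3 Utx KO libraries. Values run from 7.15 to 4119.7 CPM, and the symbols of the genotypes overlap for 36 of the 44 genes.

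Levels differed far more between the genes than between the genotypes, as the plot of levels by library shows. Since 3' end libraries give about 1 tag per transcript, CPM is not scaled by transcript length, and levels can be set side by side across genes on that basis. Mean levels were at least 100 CPM for 18 genes and under 30 CPM for 8, and the median gene of the list stood at percentile 71.2 of level among tested genes. Ncl and Npm1 alone held 57.5% of the summed level in WT and 58.8% in Utx KO. The summed level of the 44 genes was 11569, 11829 and 11198 CPM (WT) and 12372, 11639 and 11419 CPM (Utx KO), and these ranges overlap. Without Ncl and Npm1 it was 4906, 5029 and 4779 CPM (WT) and 5079, 4862 and 4653 CPM (Utx KO).

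Within a genotype the replicates also differed in how many of the genes stood above their own mean. Of the 44 genes 26, 29 and 16 were above their mean over all 6 libraries in WT, and 31, 21 and 16 in Utx KO. The lowest counts were in WT replicate 3 and Utx KO replicate 3, and the highest in Utx KO replicate 1. The median deviation from a gene's own mean ran from -0.07 to 0.06 on the log2 scale, beside at most 0.02 for all tested genes. Recovered totals moved with this in part, since replicate 3 was the shallowest library of each genotype. The part of depth in it was not tested.

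**Figure D3:**
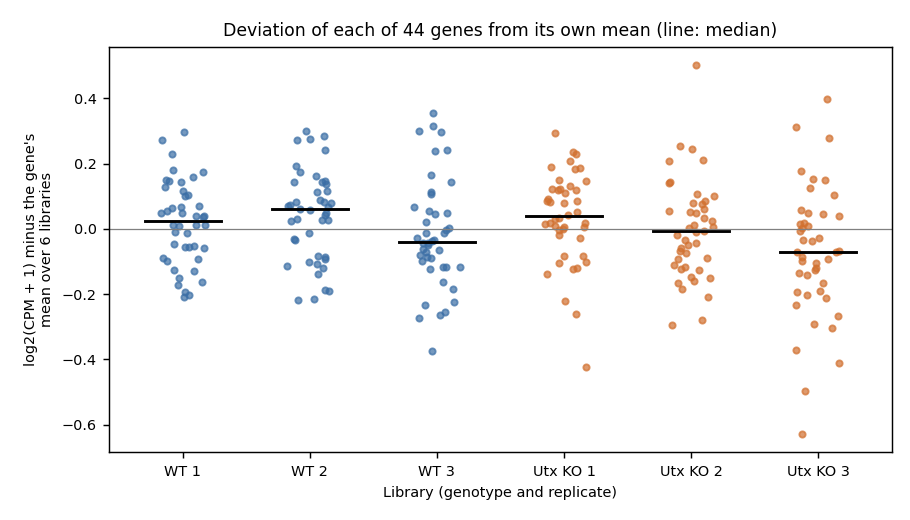
Deviation of each of the 44 genes from its own mean over 6 libraries (log2(CPM + 1), vertical axis) in each library, with 1 point per gene and the median as a line. The medians lie between -0.07 and 0.06, and the points of a library spread more widely than the medians differ.

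Promoter sequence was examined as a property the choice of genes had not used, with RefSeq start sites on GRCm38.p6 and a window from 250 bases before to 50 bases after each start. Windows were given for 39 of the 44 genes, and those without one were Bop1, Fbl, Npm1, Rrp12 and Rrs1. The E-box CACGTG, a palindrome and so the same on both strands, is known as a motif bound by Myc and Max. It occurred in the windows of 10 of 39 genes (25.6%), against 1024 of 8425 tested genes (12.2%) and 8.09% of all genes in the table, and its share was 17.2% among other ribosome biogenesis genes and 10.7% among cytosolic ribosomal protein genes. Of the 11 matches 8 began at or after the start base (72.7%), against 165 of 1239 in tested genes (13.3%). A match on that side of the start was present in 8 of 39 genes (20.5%) and in 161 of 8425 tested genes (1.91%). These shares carry no test, and a match of letters is not a binding site. The 30 bases around each match are given 5' to 3' on the gene's strand, with the E-box in capitals, to show its neighbours.
Grwd1 (chr7:45830740-45830769, minus strand): aagggccggagtcgCACGTGtgaaaccgga
Ltv1 (chr10:13193092-13193121, minus strand): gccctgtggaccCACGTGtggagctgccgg
Mybbp1a (chr11:72441347-72441376, plus strand): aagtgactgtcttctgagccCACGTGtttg
Nop2 (chr6:125131811-125131840, plus strand): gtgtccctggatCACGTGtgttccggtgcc
Pes1 (chr11:3963965-3963994, plus strand): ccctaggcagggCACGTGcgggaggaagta
Rrn3 (chr16:13780472-13780501, plus strand): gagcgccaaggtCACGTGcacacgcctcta
Rrn3 (chr16:13780639-13780668, plus strand): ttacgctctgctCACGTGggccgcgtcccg
Tsr1 (chr11:74898092-74898121, plus strand): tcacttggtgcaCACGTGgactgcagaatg
Utp20 (chr10:88826765-88826794, minus strand): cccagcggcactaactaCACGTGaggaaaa
Utp4 (chr8:106893643-106893672, plus strand): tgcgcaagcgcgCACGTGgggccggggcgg
Wdr43 (chr17:71616220-71616249, plus strand): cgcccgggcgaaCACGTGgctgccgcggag
With the start base as 1, the first base of the E-box lay downstream at position 35 in Grwd1, 29 in Ltv1, 41 in Mybbp1a, 3 in Pes1, 25 in Tsr1, 38 in Utp20, 16 in Utp4 and 18 in Wdr43. It lay upstream at -60 in Nop2 and at -215 and -48 in Rrn3, which has 2 matches. None of these 10 genes was called by limma, and their log2 fold changes ran from -0.34 (Utp20) to 0.21 (Ltv1), with 3 above 0 and a median of -0.08. The 29 genes with a window and no E-box had a median of -0.02, and 2 of them were called, Noc2l and Polr1c. Over all tested genes 10.8% were called in either direction.

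Other motifs known from promoters were searched in the same windows on both strands. The ETS core CCGGAAG (or CTTCCGG) occurred in 15 of 39 genes (38.5%), against 22.6% of tested genes and 9.93% of all genes in the table. Its share was 43.8% among the other ribosome biogenesis genes and 39.3% among cytosolic ribosomal protein genes. The GC box GGGCGG (or CCGCCC) occurred in 30 (76.9%), against 70.5% of tested genes and 38.2% of all genes. The CCAAT box (CCAAT or ATTGG) occurred in 12 (30.8%), against 43.6% of tested genes and 41.1% of all genes. None of these runs of letters holds another, and the median GC content of the windows was 58.3% for the listed genes and 61.0% for tested genes. The 15 genes with an ETS core had a median log2 fold change of -0.06 and included both called genes with a window, Noc2l and Polr1c. Over all tested genes 5.28% were called higher, and a link between the motif and these 2 calls was not tested. The windows of Noc2l and Polr1c also hold GC boxes, 3 and 1 of them.

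Of the 5 genes that encode RNA polymerase I subunits or its initiation factor, 1 rose and none fell, with a median log2 fold change of -0.02. Polr1c, on chromosome 17, encodes a subunit shared by RNA polymerases I and III. Polr1c stood at 53.8, 53.5 and 52.0 CPM (WT) and 68.3, 88.5 and 64.2 CPM (Utx KO). All 3 Utx KO libraries lay above all WT libraries, and Utx KO replicate 2 was the highest. Polr1c rose by 0.45 on the log2 scale (SE 0.12, 95% interval 0.20 to 0.71, limma adjusted p = 0.0173), which is a rise of 36.8%. The call was lost without Utx KO replicate 2 (log2 fold change 0.31, limma adjusted p = 0.152), without WT replicate 2 (0.055) or WT replicate 3 (0.0548), and with DESeq2 (0.117). No other gene overlaps its exons in the annotation, and none of the 50-base pieces of its 3' end occurred in another gene. Its promoter window (chr17:46247996-46248295, minus strand, GRCm38.p6) is given 5' to 3', with the ETS core in capitals, as the window of the called gene with the largest fold change.
Polr1c: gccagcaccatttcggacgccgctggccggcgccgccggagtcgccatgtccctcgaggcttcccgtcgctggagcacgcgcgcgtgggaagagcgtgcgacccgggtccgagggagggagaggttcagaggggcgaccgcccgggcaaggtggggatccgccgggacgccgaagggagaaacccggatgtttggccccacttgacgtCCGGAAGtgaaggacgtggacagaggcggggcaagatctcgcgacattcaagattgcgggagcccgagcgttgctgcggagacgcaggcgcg
The ETS core begins at position -42 from the start site, and GC made up 69.7% of the window.

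The other 4 genes of this step did not pass the test. Polr1a and Polr1b encode the large subunits that form the catalytic centre. Polr1a was measured at 38.4, 41.9 and 44.3 CPM (WT) and 38.1, 35.4 and 50.03 CPM (Utx KO), a log2 fold change of -0.02 (95% interval -0.33 to 0.28). The groups overlapped, with the highest value in Utx KO replicate 3. Polr1b was measured at 9.49, 12.4 and 12.6 CPM (WT) and 7.15, 7.996 and 11.1 CPM (Utx KO), with a log2 fold change of -0.37 (95% interval -0.91 to 0.17). It rested on 74 reads in all WT and 50 in all Utx KO libraries, and 20.3% of its 3' pieces occurred in other genes. Rrn3 encodes the factor that brings RNA polymerase I to the ribosomal RNA gene promoter. It was measured at 42.7, 44.7 and 60.7 CPM (WT) and 53.2, 51.4 and 45.1 CPM (Utx KO), overlapping, with a log2 fold change of 0.03 (95% interval -0.26 to 0.32). Polr1e, a subunit of the polymerase, rested on 73 and 53 reads and had a log2 fold change of -0.29 (limma adjusted p = 0.537), with every Utx KO library below every WT library.

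Among the 6 nucleolar organisers and chaperones, 1 rose (16.7%) and none fell, against 5.28% and 5.51% of all tested genes. Their median log2 fold change was 0.00, and a list of 6 cannot set 1 call apart from these shares. Npm1 encodes nucleophosmin, a histone and ribosomal protein chaperone of the granular nucleolus. It was the most abundant of the 44 transcripts, at 3642, 3707 and 3494 CPM (WT) and 4119.7, 3875 and 3914 CPM (Utx KO). All Utx KO libraries lay above all WT libraries, with a gap between the groups smaller than the range within either. Npm1 rose by 0.14 on the log2 scale (SE 0.03, 95% interval 0.06 to 0.21, limma adjusted p = 0.0114), a rise of 9.82% (95% interval 4.49% to 15.4%). It was called with DESeq2 (adjusted p = 0.0377) and edgeR (0.0225), and the call was lost without WT replicate 3 (limma adjusted p = 0.0731). Transcripts of other genes hold 9.94% of the 50-base pieces of its 3' end.

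Ncl encodes nucleolin, an RNA-binding protein of the nucleolus that takes part in transcription and early processing of ribosomal RNA. Ncl stood at 3020.4, 3093 and 2925 CPM (WT) and 3173, 2902 and 2852 CPM (Utx KO). The groups overlapped, and Utx KO replicate 1 was the highest of the 6. Its log2 fold change was -0.02 with a 95% interval of -0.10 to 0.06, the narrowest of the list after that of Npm1. Ddx21, a DEAD-box RNA helicase, was measured at 464, 461 and 422 CPM (WT) and 491, 434 and 443 CPM (Utx KO), overlapping, with a log2 fold change of 0.02 (95% interval -0.10 to 0.15). Gnl3 (nucleostemin, a nucleolar GTPase), Nolc1 (a phosphoprotein that chaperones snoRNPs) and Mybbp1a (a Myb-binding protein of the nucleolus) had log2 fold changes of 0.06, -0.07 and -0.08, and none passed the test. Their mean levels ran from 121 to 182 CPM in WT and from 125 to 172 CPM in Utx KO.

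None of the 8 snoRNP genes passed the limma test, against 10.8% of all tested genes. At an unadjusted p under 0.05 there were 2, Nop10 and Nop58, against 22.7% of all tested genes. edgeR, DESeq2 and limma-voom called none of the 8 either. In the box C/D particles, which methylate ribosomal RNA, Fbl encodes the methyltransferase fibrillarin. Fbl stood at 329, 331 and 356 CPM (WT) and 414, 329.6 and 353 CPM (Utx KO). Utx KO replicate 1 was well above the other 5 libraries, which lay close together, and the log2 fold change was 0.10 (95% interval -0.04 to 0.25). Nop56, a scaffold protein of the same particles, was measured at 402, 415 and 388 CPM (WT) and 396, 395 and 355 CPM (Utx KO), overlapping, with a log2 fold change of -0.07 (95% interval -0.20 to 0.05). Transcripts of other genes held 54.3% of the 3' pieces of Fbl and 45.8% of those of Nop56, so both values are uncertain to that extent. Nop58, its partner in the scaffold, had a log2 fold change of -0.16 (95% interval -0.30 to -0.02, limma adjusted p = 0.141), and was called without Utx KO replicate 1 (0.0356). Rrp9, a protein of the U3 particle, had a log2 fold change of 0.12 and was not called.

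In the box H/ACA particles, which convert uridine to pseudouridine, Dkc1 encodes the pseudouridine synthase dyskerin, which is also part of telomerase. Dkc1 stood at 457, 551 and 485 CPM (WT) and 513, 525 and 465 CPM (Utx KO). The groups overlapped, and the log2 fold change was 0.01 (95% interval -0.12 to 0.15). Nop10, a small core protein named after its values were seen, was measured at 132, 119.8 and 126 CPM (WT) and 168, 126 and 154 CPM (Utx KO). Utx KO replicate 2 lay within the WT range and the other Utx KO libraries above it. Its log2 fold change was 0.24 (limma adjusted p = 0.131) and was called without Utx KO replicate 2 (0.0202). The other core proteins, Gar1 and Nhp2, had log2 fold changes of -0.06 and 0.10 and were not called.

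None of the 11 small subunit genes was called by limma, edgeR, DESeq2 or limma-voom, and 8 of 11 log2 fold changes were below 0, with a median of -0.08. Of all tested genes limma called 10.8% in either direction. At an unadjusted p under 0.05 the limma fit had 1 of the 11 genes, Bysl, against 22.7% of all tested genes. Bysl encodes bystin, which binds the small subunit precursor late in its assembly. Bysl stood at 45.87, 49.31 and 42.13 CPM (WT) and 42.10, 36.55 and 30.26 CPM (Utx KO). Every Utx KO library lay below every WT library, but WT replicate 3 and Utx KO replicate 1 nearly touched. The difference was -0.34 on the log2 scale (SE 0.15, 95% interval -0.64 to -0.04, limma adjusted p = 0.165). Exons of Ccnd3 overlap Bysl on the opposite strand, and strand treatment in the counting is not given in the sources used here.

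Nob1 encodes the endonuclease that makes the last cut of the small subunit RNA. Nob1 stood at 28.1, 28.6 and 27.9 CPM (WT) and 21.4, 24.6 and 21.6 CPM (Utx KO). The groups did not overlap, with the WT libraries within 1 CPM of each other, and the log2 fold change was -0.31 (95% interval -0.66 to 0.03, limma adjusted p = 0.277). Utp20, a large scaffold of the early precursor, was measured at 29.7, 31.3 and 35.0 CPM (WT) and 23.4, 33.7 and 19.8 CPM (Utx KO), with Utx KO replicate 2 inside the WT range. Its log2 fold change was -0.34 (95% interval -0.72 to 0.04). The UTP proteins that bind the precursor early, Utp4, Wdr43 and Wdr75, had log2 fold changes of -0.08, -0.06 and 0.05. Nop14 and its binding partner Noc4l had -0.01 and -0.13, and the late or export factors Rrp12, Ltv1 and Tsr1 had 0.22, 0.21 and -0.16. Mean levels of these 8 genes ran from 12.8 CPM (Rrp12) to 306 CPM (Wdr43) in WT and from 15.2 to 293 CPM in Utx KO, and the groups overlapped for each of them.

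Of the 14 large subunit genes 1 rose (7.14%) and none fell, against 5.28% and 5.51% of all tested genes. Their log2 fold changes were above 0 for 5 and below 0 for 9, with a median of -0.06. Noc2l encodes a nucleolar assembly factor of the large subunit that is also known as an inhibitor of histone acetyltransferases. Noc2l stood at 172, 179 and 178 CPM (WT) and 207, 224 and 208 CPM (Utx KO). The groups did not overlap, and each was tight. Noc2l rose by 0.27 on the log2 scale (SE 0.07, 95% interval 0.12 to 0.42, limma adjusted p = 0.0144), a rise of 20.8%. The call was lost without WT replicate 1 (limma adjusted p = 0.0705), without Utx KO replicate 2 (0.0849) and with DESeq2 (0.10). Samd11 overlaps Noc2l on the opposite strand and was measured at 8.70, 2.76 and 7.11 CPM (WT) and 5.16, 2.86 and 3.71 CPM (Utx KO). Transcripts of other genes hold 3.41% of the 50-base pieces of the 3' end of Noc2l, among them Rfc5 at 80.5 to 95.2 CPM over the 6 libraries. The part of these genes in the Noc2l values was not tested. The promoter window of Noc2l (chr4:156235765-156236064, plus strand, GRCm38.p6) is given 5' to 3', with the ETS core in capitals, as the window of the other called gene for which one was given.
Noc2l: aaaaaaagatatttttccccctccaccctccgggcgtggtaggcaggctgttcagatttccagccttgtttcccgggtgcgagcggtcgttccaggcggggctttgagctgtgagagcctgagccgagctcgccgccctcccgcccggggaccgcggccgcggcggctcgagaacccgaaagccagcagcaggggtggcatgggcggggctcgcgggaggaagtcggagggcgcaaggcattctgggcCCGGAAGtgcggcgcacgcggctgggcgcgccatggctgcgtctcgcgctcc
The ETS core begins at position -2 from the start of this window, and at position 4 from the other start that RefSeq gives for Noc2l, 5 bases upstream. GC made up 69.3% of the window.

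Pes1, Bop1 and Wdr12 encode the PeBoW complex, which is needed to process the large subunit precursor, and none of them was called. Pes1 was measured at 85.8, 79.3 and 80.4 CPM (WT) and 96.9, 84.5 and 84.6 CPM (Utx KO). Its values overlapped and its log2 fold change was 0.11 (95% interval -0.10 to 0.32). Bop1 was measured at 21.4, 20.3 and 21.3 CPM (WT) and 21.8, 22.8 and 12.4 CPM (Utx KO), with Utx KO replicate 3 below the other 5 libraries. This lowest value rested on 20 reads, and the log2 fold change was -0.18 (95% interval -0.63 to 0.26), or 0.09 without that replicate. Wdr12 was measured at 62.1, 60.8 and 60.7 CPM (WT) and 74.7, 71.4 and 59.3 CPM (Utx KO), with Utx KO replicate 3 just below the WT libraries and the other Utx KO libraries above them. Its log2 fold change was 0.15 (95% interval -0.09 to 0.39), and 20.3% of its 3' pieces occurred in other genes.

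Rrp1b, named after its values were seen as the gene nearest the threshold, encodes a nucleolar protein of the large subunit precursor. Rrp1b stood at 129.7, 143 and 125 CPM (WT) and 119, 98.2 and 114 CPM (Utx KO). All Utx KO libraries lay below all WT libraries, with a log2 fold change of -0.26 (SE 0.09, limma adjusted p = 0.0758), past the threshold without Utx KO replicate 1 (0.036). Ebna1bp2, a partner of large subunit precursors, was also lower in every Utx KO library, at -0.15 on the log2 scale (limma adjusted p = 0.318). The methyltransferase gene Nop2 had a log2 fold change of -0.10, the helicase gene Ddx18 -0.07 and the 5S particle factor Rrs1 -0.14. Assembly factors Nop16, Nip7, Mrto4, Grwd1 and Wdr74 had -0.01, 0.02, -0.05, -0.14 and 0.10. None of these passed the test, and apart from Ebna1bp2 their groups overlapped. Mean levels of these 9 ran from 21.5 CPM (Grwd1) to 229 CPM (Ddx18) in WT and from 19.2 to 218 CPM in Utx KO.

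**Figure D4:**
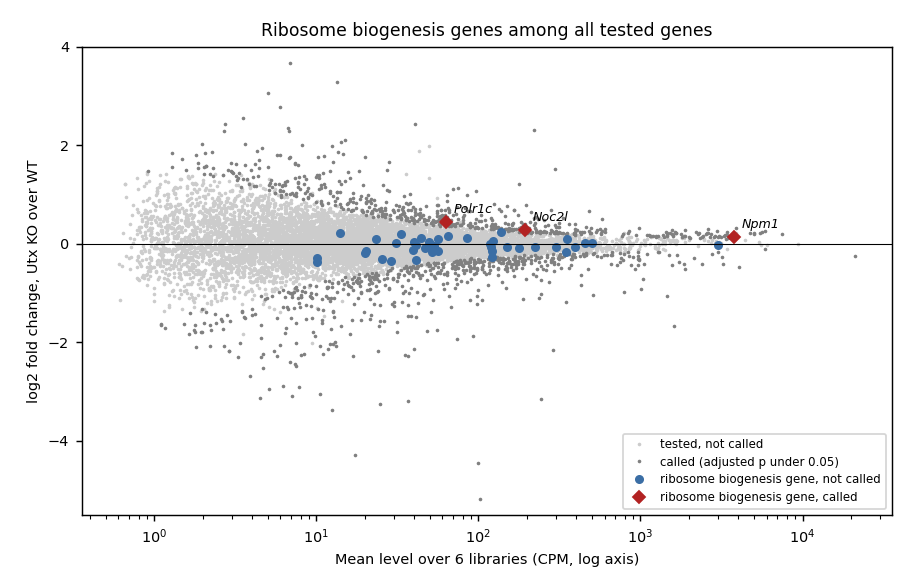
Log2 fold change (Utx KO over WT, vertical axis) against mean level over 6 libraries (CPM, log axis) for all 10590 tested genes, with the 44 genes as large symbols and called genes darker. The 44 genes lie between -0.37 and 0.45, inside a cloud that runs from -5.19 to 3.67.

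A wider list gave the other genes of the pathway, 152 of which were tested out of 162 listed. Of these 4 were called higher (2.63%) and 4 lower (2.63%) by limma, against 5.28% and 5.51% of tested genes, with 76 log2 fold changes on either side of 0 and a median of 0.00. The call higher with the largest fold change was Utp14a, a small subunit processing factor, at 36.0 ± 5.56 CPM (WT) against 53.0 ± 5.98 CPM (Utx KO; SD, n = 3), a log2 fold change of 0.55 (limma adjusted p = 0.0131). Ddx49, a helicase (0.36, limma adjusted p = 0.0494), Nop53 of the large subunit (0.21, 0.0251) and Nsa2 of the large subunit (0.16, 0.0159) were also called higher. The calls lower were Polr2l, a subunit shared by the nuclear RNA polymerases (-0.37, limma adjusted p = 0.0311), Ftsj3, a methyltransferase (-0.30, 0.0304), and Bms1, a small subunit GTPase (-0.23, 0.0485). Ddx24, a helicase, was the other gene called lower (-0.21, limma adjusted p = 0.0366) and is named after its values were seen. Without Utx KO replicate 2 all the other calls but Nsa2 were lost, and Nsa2 lost its call without WT replicate 1 (limma adjusted p = 0.0569) or Utx KO replicate 3 (0.0983). Of these 7 DESeq2 called Nsa2 alone, the Bms1 call was lost under 10 of the 15 alternatives and the Ddx49 call under 12, among them edgeR and TMM scaling. By step, 0 rose and 1 fell of 17 RNA polymerase I genes, 1 and 0 of 12 snoRNP genes, 2 and 1 of 55 small subunit genes and 2 and 2 of 57 large subunit genes. Nop53 is in the snoRNP and the large subunit list. Transcripts of other genes hold 13.7% of the 3' pieces of Nsa2 and 8.37% of those of Polr2l. Exons of Ddx49, Nsa2 and Utp14a overlap genes on the opposite strand, and Ddx24 was not searched. The part of these overlaps and copies in the calls was not tested. The 13 genes of the RNA exosome, which trims precursors, had a median log2 fold change of -0.04 and no call, with Dis3, its nuclease, at -0.28 (limma adjusted p = 0.11).

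Myc, whose protein drives many of these genes in growing cells, was measured at 54.6, 60.8 and 47.1 CPM (WT) and 89.8, 58.3 and 51.9 CPM (Utx KO). Utx KO replicate 1 was the highest and the other Utx KO libraries lay within the WT range. The log2 fold change was 0.26 (95% interval -0.06 to 0.58, limma adjusted p = 0.336). In the Myc network, 1 of 10 tested genes was called, near the 10.8% of all tested genes called in either direction. Of the 10 log2 fold changes 5 were above 0 and 5 below. The called gene was Mxd4, which encodes a Max partner that acts against Myc. Mxd4 stood at 27.3 ± 1.96 CPM (WT) against 42.4 ± 1.70 CPM (Utx KO; SD, n = 3) and rose by 0.62 on the log2 scale (limma adjusted p = 0.00562), a call lost with DESeq2 (0.0817).

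**Figure D5:**
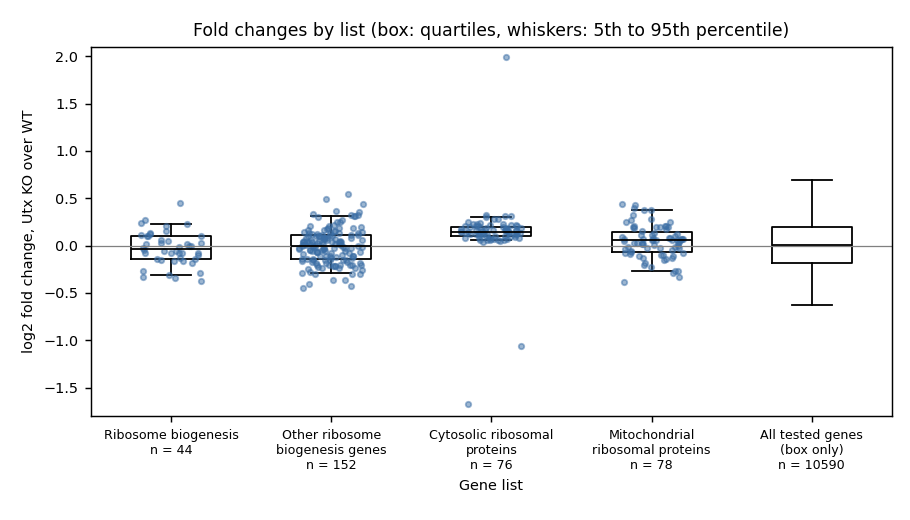
Log2 fold changes (Utx KO over WT, vertical axis) of the 44 genes, the 152 other ribosome biogenesis genes, 76 cytosolic and 78 mitochondrial ribosomal protein genes (1 point per gene) and all tested genes (box only), with boxes at the quartiles and whiskers at the 5th and 95th percentiles. The median line is at -0.04, 0.00, 0.15, 0.06 and 0.01 in turn.

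The proteins that these factors build into ribosomes were counted in the same fit. Apart from Rack1, which kept its call under all 15 alternatives, calls of these lists were followed in that fit alone. Of 76 tested genes for cytosolic ribosomal proteins limma called 47 higher (61.8%) and 2 lower (2.63%), against 5.28% and 5.51% of all tested genes. Their median log2 fold change was 0.15. In 63 of them all Utx KO libraries lay above all WT libraries, which held for 1478 of all 10590 tested genes. The genes called lower were Rps13 (-1.67, from 2436 to 764 CPM) and Rps15a (-1.06, from 1974 to 943 CPM). The largest log2 fold change of the list was that of Rps27 (2.00), which was not called (limma adjusted p = 0.187). Its mean level went from 28.7 to 70.8 CPM, a smaller change than 2.00 on the log2 scale. The fit averages log2(CPM + 1) over libraries, so single low values weigh more there than in mean CPM. The part of this in the Rps27 values was not tested. These 3 genes were named after their values were seen. Apart from Rack1, no gene of this list was searched for 3' pieces shared with other transcripts. How reads with multiple matches were treated is not given, so these values are uncertain. The part of gene copies in them was not tested. Rack1, a ribosomal protein of the small subunit, stood at 1325 ± 18.0 CPM (WT) against 1557 ± 72.8 CPM (Utx KO; SD, n = 3), a rise of 0.23 (limma adjusted p = 0.000498). The median level was 1651 CPM in the ribosomal protein list and 56.7 CPM among the 44 genes, and the 95% interval lay inside 1.5-fold for 94.7% and 81.8% of them. The rise of Npm1, at 0.14, was close to that list's median. Of 78 mitochondrial ribosomal protein genes 1 was called higher (1.28%) and 2 lower (2.56%), against the same 5.28% and 5.51%, with a median of 0.06. The differences between the lists were not tested.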

How the data were processed

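Messenger RNA of 3 WT and 3 Utx KO libraries was measured with a 3' end kit from 500 ng of total RNA, per the labels' protocols. Each library has a table that the authors deposited, in CPM, for all 25655 Ensembl identifiers they list, per the file headers. The submitters' processing notes name GRCm38 and mm10, and, for alignment and counting, tools and the treatment of strand and multiple matches were not given in the sources used here. Division by the value of 1 read gave whole reads for 100% of values (tolerance 0.001). Symbols were found for 25600 identifiers. The 44 genes, their roles and the other lists were chosen with earlier results of these data known.

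The test was limma-trend (limma 3.58.1, R 4.3.3) on log2(CPM + 1) over the 10590 genes that reached 1 CPM in no fewer than 3 libraries, two-sided, with Benjamini-Hochberg adjustment over all of them and a threshold of 0.05. Fold changes on this scale understate changes of low genes. The plan had named edgeR for raw counts and limma for CPM. Alternatives were edgeR 4.0.16, DESeq2 1.42.0 and limma-voom on the recovered reads, other pseudocounts, filters and scaling, a replicate block, and leaving out each library. The fits were tested on simulated data. Values in every library are given for called genes, the 5 most abundant and 12 representatives over all steps together. They are also given for up to 4 uncalled genes of largest fold change, and for Nop10 and Rrp1b, named after their values were seen. Of other lists up to 3 called genes each, Kdm6a and Myc are named. Exon overlaps and 50-base pieces of the last 300 bases of transcripts come from GENCODE M21 (GRCm38), and promoter windows from RefSeq (GRCm38.p6).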

Additional observations from a re-analysis of the deposited data

How the results depend on the processing

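Of 660 results (44 genes under 15 alternatives) 610 kept their direction and their side of the threshold, 39 changed sign, 8 lost a call and 3 gained one. Genes called over the whole table numbered 1142, and 551 with DESeq2 and 754 to 1042 with a library left out. Genes of the 44 called higher numbered 3, and 1 with DESeq2 and 1 to 3 with a library left out, and those called lower numbered 0, and 0 to 2 with a library left out. The 2 were Nop58 and Rrp1b without Utx KO replicate 1. The median log2 fold change of the 44 genes moved by less than 0.053 under every alternative, and was 0.01 without Utx KO replicate 3. That bound is the SD, pooled within genotypes, of each library's median deviation from the genes' own means. It is not a spread of the fold change itself.

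The samples share only a replicate number. Deviations of same-numbered libraries had correlations of 0.006, -0.003 and -0.010, and no library correlated best with its own number. With the replicate block 1065 genes were called, and 3 of the 44. No call of the 44 changed with it.

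All genes that changed sign were uncalled. Nop16 was at 0.00083 with edgeR and 0.0014 with limma-voom, against -0.01. Log2 fold changes with a library left out ran from -0.33 to 0.087 for Bop1, -0.031 to 0.057 for Ddx21, -0.047 to 0.088 for Dkc1, -0.15 to 0.11 for Gar1 and -0.064 to 0.12 for Gnl3. They ran from -0.19 to 0.059 for Mrto4, -0.066 to 0.011 for Ncl, -0.088 to 0.18 for Nip7, -0.15 to 0.026 for Nolc1 and -0.12 to 0.082 for Nop14. The ranges were -0.050 to 0.049 for Nop16, -0.17 to 0.074 for Polr1a, -0.065 to 0.18 for Rrn3, -0.23 to 0.012 for Rrs1, -0.16 to 0.044 for Utp4 and -0.099 to 0.17 for Wdr75. The cause was not tested.

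With 3 libraries a group, the intervals of 8 genes reached past 1.5-fold. Polr1b rested on 74 and 50 reads a group and Polr1e on 73 and 53. The libraries give levels at day 5 only.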
